A study of Homo sapiens with 6 samples.

Results

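The insulin, growth hormone and PI3K-AKT signalling genes analysed here are 36 genes chosen by name from the 58825 genes of the deposited table. They comprise the receptors INSR and GHR, the adaptors IRS1 and IRS2, subunits of PI3K, phosphatases, AKT1 and AKT2, the TSC, RHEB and mTOR genes, the S6 kinase and 4E-binding protein genes, substrates of AKT, SGK1, and the 3 genes UCP2, RAB31 and CPEB2. The RNA came from MHCC97H, an established cell line of human hepatocellular carcinoma, and 6 libraries of messenger RNA were sequenced. The 3 shControl libraries are labelled WT and come from cells given a control short hairpin RNA. The 3 shPTBP1 libraries are labelled PTBP1 knockdown and come from cells given a short hairpin RNA against PTBP1, a splicing regulator. Neither group is labelled with an added hormone, a time point or the hairpin used, and the labels do not say whether the libraries of a group are separate cultures. The study says in general terms that its data stand for independent experiments, without tying these libraries to them, so the p-values measure the spread between these libraries, which may be technical.

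When insulin binds its receptor, the receptor phosphorylates IRS adaptors, which recruit PI3K, and the lipid that PI3K makes at the membrane brings PDK1 (the product of PDPK1) and AKT together so that PDK1 can activate AKT. AKT restrains the TSC complex, which leaves RHEB free to activate the mTOR complex that acts on S6 kinases and 4E-binding proteins. It also restrains GSK3 and the FOXO transcription factors through AKT phosphorylation. Growth hormone acts through GHR and the kinase JAK2, and in liver both hormones govern glucose output and growth. Much of this control is by phosphorylation, which RNA levels do not measure.

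PTBP1 itself overlapped between the groups. Its TMM-normalized CPM (counts per 1e6, scaled by edgeR for library composition) was 175, 133 and 218 in shControl 1, 2 and 3 against 143, 139 and 150 in shPTBP1 1, 2 and 3, with a log2 fold change of -0.29 (standard error 0.18, edgeR adjusted p = 0.953). PTBP2, a paralog whose transcript PTBP1 is known to repress through splicing, did not overlap. It was at 31.2, 28.7 and 9.20 CPM in shControl against 59.0, 62.6 and 50.5 CPM in shPTBP1, with a log2 fold change of 1.32 (standard error 0.41, by edgeR unadjusted p = 0.0152, adjusted p = 0.718). The names shControl and shPTBP1 below mean the libraries so labelled. Total counts were between 68.7 and 85.3 times 1e6 per library. The libraries numbered 3 stood apart from the others. Their summed CPM over 10 red-cell markers was 1.32 (shControl) and 1.15 (shPTBP1) against 759 to 1279 in the other 4, and over 13 leukocyte markers 0.382 and 0.167 against 21.1 to 35.6. The 9 stromal and endothelial markers summed to between 284 and 358 CPM in shControl and between 380 and 501 in shPTBP1, with COL1A2 at 0. Of 12 hepatocyte and hepatocellular carcinoma markers, 2 reached a mean of 1 CPM, the keratins KRT8 and KRT18, and ALB, AFP, APOB, TTR and EPCAM were at 0 in every library. The part of these differences in the results was not tested. The source of the red-cell and leukocyte transcripts in these libraries of a cell line was not tested. The libraries alone cannot tell whether these transcripts came from cells in the cultures.

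The promoter sequences of UCP2, PDPK1, RAB31, CPEB2 and SGK1 are shown because these are the 5 members with an unadjusted p under 0.05 and more than 1 CPM in both groups. Each runs from 250 bases before to 50 bases after the RefSeq start on GRCh38.p14, 5′ to 3′ on the strand of the gene, with matches to the GC box (GGGCGG) and the E-box (CACGTG) on either strand in capitals.
UCP2, chr11:73983153-73983452, minus strand: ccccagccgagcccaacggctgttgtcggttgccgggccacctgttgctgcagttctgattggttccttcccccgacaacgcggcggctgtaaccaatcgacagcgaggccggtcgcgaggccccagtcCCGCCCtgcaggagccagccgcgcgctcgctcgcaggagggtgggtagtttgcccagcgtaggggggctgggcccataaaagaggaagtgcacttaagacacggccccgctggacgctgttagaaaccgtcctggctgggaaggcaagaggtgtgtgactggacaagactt
PDPK1, chr16:2537771-2538070, plus strand: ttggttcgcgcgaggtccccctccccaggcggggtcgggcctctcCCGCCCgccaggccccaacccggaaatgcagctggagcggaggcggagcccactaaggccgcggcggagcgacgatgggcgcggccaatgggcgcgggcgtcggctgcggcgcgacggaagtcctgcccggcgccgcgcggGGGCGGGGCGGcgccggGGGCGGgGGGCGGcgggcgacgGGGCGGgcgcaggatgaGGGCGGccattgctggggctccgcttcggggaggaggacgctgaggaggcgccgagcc
RAB31, chr18:9708051-9708350, plus strand: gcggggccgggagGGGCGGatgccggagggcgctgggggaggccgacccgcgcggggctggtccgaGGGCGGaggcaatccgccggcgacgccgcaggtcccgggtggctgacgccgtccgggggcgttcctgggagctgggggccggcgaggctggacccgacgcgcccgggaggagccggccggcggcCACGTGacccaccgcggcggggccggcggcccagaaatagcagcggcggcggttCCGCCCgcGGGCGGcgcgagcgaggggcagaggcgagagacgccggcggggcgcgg
CPEB2, chr4:15002231-15002530, plus strand: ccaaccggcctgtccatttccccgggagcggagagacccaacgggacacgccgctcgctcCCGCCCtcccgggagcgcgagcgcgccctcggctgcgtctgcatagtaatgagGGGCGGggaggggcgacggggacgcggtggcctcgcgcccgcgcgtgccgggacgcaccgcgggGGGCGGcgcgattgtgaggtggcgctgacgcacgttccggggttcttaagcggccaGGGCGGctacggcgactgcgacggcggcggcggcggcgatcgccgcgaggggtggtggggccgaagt
SGK1, chr6:134318063-134318362, minus strand: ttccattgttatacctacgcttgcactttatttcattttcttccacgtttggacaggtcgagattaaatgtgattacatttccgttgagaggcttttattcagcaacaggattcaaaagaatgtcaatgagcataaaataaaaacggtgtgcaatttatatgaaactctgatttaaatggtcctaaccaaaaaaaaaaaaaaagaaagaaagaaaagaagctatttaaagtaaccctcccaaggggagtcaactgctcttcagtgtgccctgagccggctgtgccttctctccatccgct
The PDPK1, RAB31 and CPEB2 promoters were rich in G and C (80.0%, 82.7% and 76.0%), against 64.7% in UCP2 and 38.0% in SGK1 and a median of 58.3% over 27305 RefSeq promoters. PDPK1 held 7 GC boxes, some of them overlapping, RAB31 and CPEB2 held 4 each, UCP2 held 1 and SGK1 held none. The E-box in RAB31 was the only one in the 5 sequences. A promoter was found for 35 of the 36 members, all but EIF4EBP1. A GC box occurred in 27 of the 35 (77.1%) and in 44.6% of all promoters, which include those of non-coding genes. The FOXO core GTAAACA occurred in PIK3CA and FOXO4, 2 of 35, and in 3.41% of all promoters. The E-box occurred in IRS1, TSC2 and RAB31 (7.43% of all promoters), the STAT element TTCNNNGAA in RPS6KB1 (7.88%) and the cAMP response element TGACGTCA in no member (1.98%). These matches describe the letters of the window and not binding. Only 1 start per gene is shown, and for SGK1 it is the outermost of the gene's span. The windows of UCP2 and CPEB2 lie wholly upstream of the deposited gene spans, which begin at 73982843 (minus strand) and 15002674. Their bases after the RefSeq start are thus outside those spans. Which start gave the measured RNA was not examined.

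Per length, most of the members were expressed at low to moderate levels. The mean deposited FPKM (fragments per kilobase of transcript and 1e6 fragments of the library) over the 6 libraries was at least 10 for 6 members, from 1 to 10 for 25 and under 1 for 5, with a median of 3.38. The highest were EIF4EBP1 (68.0 FPKM), RHEB (35.2), SGK1 (28.7), EIF4EBP2 (14.3), GSK3A (13.4) and GSK3B (10.9). EIF4EBP1 and EIF4EBP2 encode translational repressors that mTOR inactivates, and RHEB is the small GTPase that activates mTOR. The lowest were INPP4B (0.00167 FPKM), GHR (0.0133), INPP5D (0.0833), PIK3CD (0.293) and PIK3R1 (0.648).

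**Figure D1:**
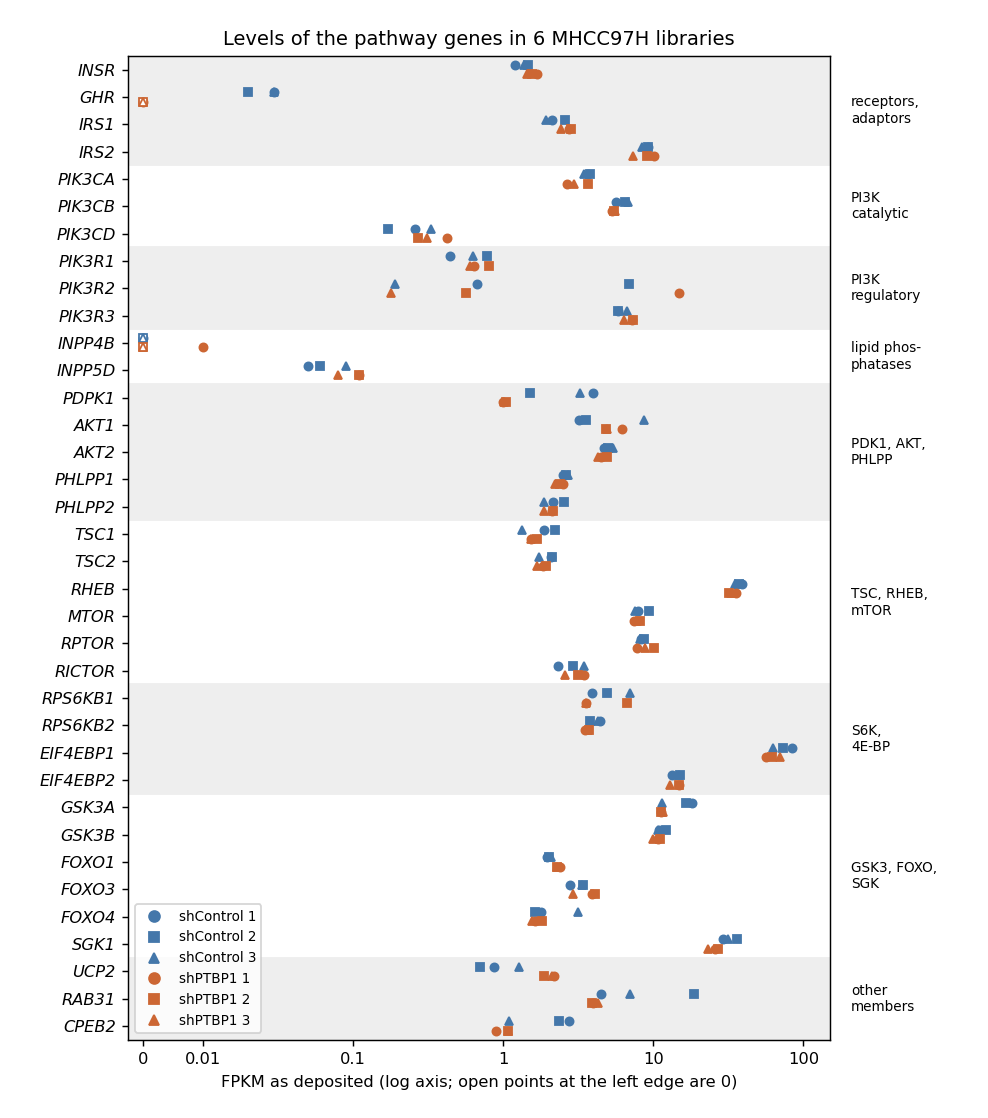
FPKM of the 36 genes (log axis, 0 at the left edge) in each library, blue for shControl and orange for shPTBP1, with circles, squares and triangles for libraries 1, 2 and 3. EIF4EBP1 is highest at a mean of 68.0 FPKM, PIK3R2 is scattered from 0.18 to 14.92 FPKM, and GHR is at 0 in each shPTBP1 library.

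The comparison of shPTBP1 with shControl called none of the 35 members tested. By the quasi-likelihood test of edgeR the smallest adjusted p of a member was 0.413, and 6 of 19393 genes passed (0.0309%). At an unadjusted p under 0.05 there were 6 members, UCP2 higher and GHR, PDPK1, RAB31, CPEB2 and SGK1 lower. They are 17.1% of those tested, against 5.69% of all genes (3.58% higher, 2.11% lower). Without UCP2, RAB31 and CPEB2, the 3 genes outside the signalling chain itself, 3 of 32 (9.38%) remained. DESeq2 called 3 members, PDPK1 (adjusted p = 0.0012), UCP2 (0.0140) and GHR (0.0295), and 0.743% of all genes it adjusted. Limma on log2(FPKM + 1) called none of the 31 members it tested (0.0749% of all genes) and had PDPK1, SGK1, UCP2 and CPEB2 at an unadjusted p under 0.05 (6.91%). The members had been picked with results of these data known, so these shares are a description. GHR, at 0 in shPTBP1, is counted here although it passed the filter on low counts only through shControl. The log2 fold change was positive for 15 members and negative for 20, with a median of -0.07 against -0.01 over all genes, and 23 members lay within 0.25 of 0. The groups did not overlap for 8 members (22.9%, against 11.9% of all genes), with INSR, FOXO1 and UCP2 above (6.49% of all genes) and GHR, PIK3CB, PDPK1, SGK1 and RAB31 below (5.46%).

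**Figure D2:**
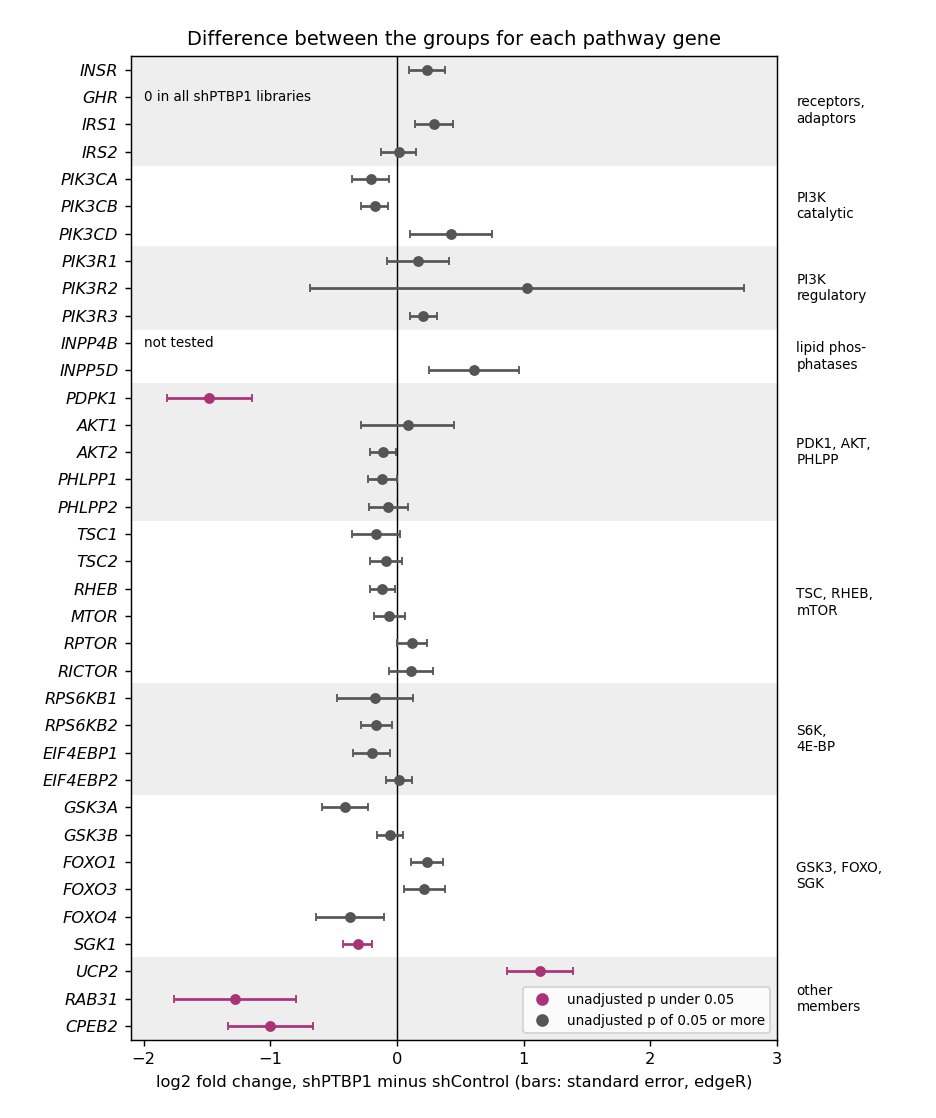
Log2 fold change of each gene, shPTBP1 minus shControl, with bars of 1 standard error (edgeR, 3 libraries per group), in magenta where the unadjusted p is under 0.05. Most points lie near 0, UCP2 is at 1.13, PDPK1, RAB31 and CPEB2 are at -1.48, -1.28 and -1.0, and PIK3R2 has a standard error of 1.71. GHR is not drawn because it is at 0 in shPTBP1, and INPP4B was not tested.

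Among the receptors and adaptors, the insulin receptor gene INSR (chromosome 19, 7112255 to 7294414 on hg38) was at 15.6, 18.7 and 17.4 CPM in shControl against 22.0, 20.0 and 19.0 CPM in shPTBP1. Every shPTBP1 library was above every shControl library, by a small margin. The log2 fold change was 0.24 (standard error 0.14, edgeR adjusted p = 0.953). IRS1, an adaptor that docks PI3K, was at 25.3, 30.3 and 22.4 CPM in shControl against 33.0, 33.3 and 29.4 CPM in shPTBP1. The groups overlapped only between shControl 2 and shPTBP1 3, and the log2 fold change was 0.29 (standard error 0.15, edgeR adjusted p = 0.933). IRS2, the adaptor most associated with insulin action in liver, was at 89.6, 88.3 and 79.7 CPM in shControl against 99.3, 88.0 and 72.5 CPM in shPTBP1, with a log2 fold change of 0.01. The shPTBP1 libraries thus spanned the shControl values. Per length, IRS2 made up 80.2% ± 1.84 (SD, n = 3) of the summed IRS1 and IRS2 FPKM in shControl and 76.7% ± 1.81 in shPTBP1, and the ranges, 78.1 to 81.3% and 75.1 to 78.6%, overlapped.

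GHR, the growth hormone receptor gene (chromosome 5, 42423439 to 42721878), was close to the limit of detection. It had 19, 12 and 19 counts in shControl 1, 2 and 3 and 0 in each shPTBP1 library. Its mean was 0.228 ± 0.0779 CPM (SD, n = 3) in shControl, and against a floor of 3 counts per library it was at least 5.81-fold lower in shPTBP1. In each library between 32.5% and 34.4% of the counts from 1 to 40 were multiples of 4, and if 1 fragment adds 4 counts the floor is 12 counts and the bound 1.45-fold. These floors cover counting error only. The unadjusted p was 0.00238 and the adjusted p 0.413 by edgeR. With 0 counts in shPTBP1, GHR passed the filter on low counts only through shControl, so its p-values are no support for a difference.

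None of the PI3K catalytic subunit genes had an unadjusted p under 0.05. PIK3CA, the alpha subunit often mutated in cancers, was at 42.6, 43.2 and 38.5 CPM in shControl against 30.8, 42.1 and 34.6 CPM in shPTBP1, with overlapping groups and a log2 fold change of -0.21. PIK3CB, the beta subunit (chromosome 3, 138652699 to 138834833), was at 53.2, 59.7 and 61.5 CPM in shControl against 49.6, 51.4 and 53.1 CPM in shPTBP1. Its groups did not overlap but were nearly level where they met, in shControl 1 and shPTBP1 3. The log2 fold change was -0.18 (standard error 0.10, edgeR adjusted p = 0.953). PIK3CB gave 61.7% of the FPKM of the 3 catalytic genes in shControl and 61.5% in shPTBP1. PIK3CD, the subunit typical of leukocytes, was at 1.28 to 2.45 CPM in shControl and at 2.08 to 3.24 CPM in shPTBP1. Its groups overlapped, and its log2 fold change was 0.43 (standard error 0.32, edgeR adjusted p = 0.957) over 6 libraries and 0.64 without shControl 3.

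Of the regulatory subunit genes, PIK3R1 was at 5.66, 9.85 and 7.92 CPM in shControl against 8.23, 10.3 and 7.82 CPM in shPTBP1. The groups overlapped, with a log2 fold change of 0.17 (standard error 0.24). PIK3R3 made up 90.9% of the FPKM of PIK3R1 and PIK3R3 together in shControl and 91.1% in shPTBP1, and its log2 fold change was 0.21. PIK3R2 varied far more between libraries than between groups. It was at 3.61, 36.6 and 0.991 CPM in shControl against 80.0, 3.04 and 0.986 CPM in shPTBP1, an 81.1-fold span. The high libraries were shControl 2 and shPTBP1 1, 1 in each group. The log2 fold change was 1.02 with a standard error of 1.71 (adjusted p = 0.982, edgeR), and it was -2.77 without shPTBP1 1 and 3.61 without shControl 2. Of the 50-base stretches in PIK3R2 transcripts of GENCODE 29, 84.5% also occur in the gene AC007192.1 on the same strand. AC007192.1 was at 39.3, 27.2 and 64.5 CPM in shControl against 28.5, 72.6 and 55.1 CPM in shPTBP1. Its lowest values were thus in shControl 2 and shPTBP1 1, the libraries where PIK3R2 was high. The sum of both was 42.9, 63.8 and 65.5 CPM in shControl against 108, 75.6 and 56.1 CPM in shPTBP1. AC007192.1 made up most of this sum in 4 libraries, so a narrower span of the sum than of PIK3R2 is given by its makeup. The level of PIK3R2 alone is uncertain because of the shared sequence, and how the authors' counting divided shared reads is not stated.

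**Figure D3:**
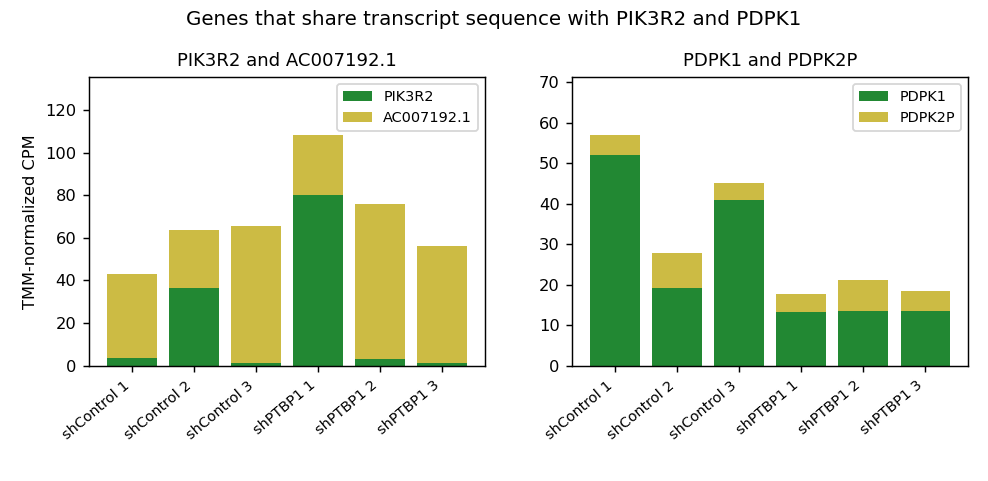
TMM-normalized CPM of PIK3R2 stacked with AC007192.1 (left) and of PDPK1 stacked with PDPK2P (right) in each of the 6 libraries. PIK3R2 is the larger part in shControl 2 and shPTBP1 1 and AC007192.1 in the other 4 libraries, and PDPK2P adds between 4.08 and 8.50 CPM to PDPK1.

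The 2 phosphoinositide phosphatase genes were barely expressed. INPP4B had between 0 and 4 counts in 5 libraries and 19 in shPTBP1 1, and the filter on low counts removed it. INPP5D, the blood-cell phosphatase SHIP1, was at 0.527, 0.636 and 0.906 CPM in shControl against 1.16, 1.17 and 0.819 CPM in shPTBP1, with a log2 fold change of 0.61 (standard error 0.36, edgeR adjusted p = 0.953). Its groups overlapped through the libraries numbered 3.

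PDPK1, which encodes the kinase PDK1 that activates AKT and SGK1, lies on chromosome 16 from 2537979 to 2603188. It was at 52.1, 19.3 and 40.9 CPM in shControl against 13.2, 13.5 and 13.5 CPM in shPTBP1. The shControl libraries differed widely among themselves, the shPTBP1 libraries hardly at all, and the groups did not overlap. The means were 37.4 ± 16.7 and 13.4 ± 0.171 CPM (SD, n = 3 each), and the log2 fold change was -1.48 (standard error 0.34, by edgeR unadjusted p = 0.00297, adjusted p = 0.457). PDPK2P shares 24.6% of the 50-base stretches of PDPK1, and the sum of both genes was 57.1, 27.8 and 45.0 CPM in shControl against 17.7, 21.0 and 18.5 CPM in shPTBP1, with a log2 ratio of means of -1.18. The promoter of PDPK1, with its 7 GC boxes, is shown above.

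AKT1 and AKT2 encode the AKT kinases. AKT1 (chromosome 14, 104769349 to 104795679) was at 42.5, 47.0 and 113 CPM in shControl against 82.4, 64.7 and 67.2 CPM in shPTBP1. The shControl 3 library was above every other library, while shControl 1 and 2 were below all 3 shPTBP1 libraries. The log2 fold change was 0.09 (standard error 0.37, edgeR adjusted p = 0.995) over 6 libraries and 0.67 (standard error 0.14, unadjusted p = 0.00299, adjusted p = 0.110) without shControl 3. AKT2 was at 84.2, 88.6 and 94.1 CPM in shControl against 80.7, 88.3 and 78.2 CPM in shPTBP1, with overlapping groups and a log2 fold change of -0.11. AKT1 gave 48.0% ± 11.9 (SD, n = 3) of the AKT1 and AKT2 FPKM in shControl and 53.8% ± 4.14 in shPTBP1. PHLPP1 and PHLPP2, phosphatases that inactivate AKT, had log2 fold changes of -0.12 and -0.07.

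Over the 6 libraries the genes of the TSC, RHEB and mTOR step lay within 0.17 of 0 on the log2 scale, with standard errors between 0.10 and 0.19 and adjusted p between 0.967 and 0.987 (edgeR). MTOR, the kinase itself, was at 115, 134 and 105 CPM in shControl against 108, 118 and 115 CPM in shPTBP1. The shPTBP1 values fell inside the shControl range, and the log2 fold change was -0.06 (standard error 0.12). The log2 fold changes of the complex partners RPTOR and RICTOR were 0.12 and 0.11, those of the inhibitors TSC1 and TSC2 were -0.17 and -0.09, and that of RHEB was -0.11. TSC1 depended on single shControl libraries, with a log2 fold change of -0.35 without shControl 3 (unadjusted p = 0.0235, adjusted p = 0.22, edgeR) and of -0.00073 without shControl 2.

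Downstream of mTOR, RPS6KB1, an S6 kinase gene, ranged from 33.1 to 62.8 CPM with its highest library in shControl and its second highest in shPTBP1. Its log2 fold change was -0.17 (standard error 0.30), and that of RPS6KB2 was -0.16. EIF4EBP1, the most highly expressed member per length, was at 88.0, 76.3 and 64.3 CPM in shControl against 59.7, 64.9 and 74.2 CPM in shPTBP1, with a log2 fold change of -0.20 (standard error 0.15, edgeR adjusted p = 0.957). The groups overlapped. EIF4EBP2 had a log2 fold change of 0.02.

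Among the substrates of AKT, GSK3A, a kinase that restrains glycogen synthase, was at 89.4, 80.8 and 54.7 CPM in shControl against 55.3, 55.3 and 58.3 CPM in shPTBP1. Only shControl 3 lay at the level of shPTBP1. The log2 fold change was -0.41 (standard error 0.18, edgeR adjusted p = 0.895) and was -0.60 (adjusted p = 0.0708) without shControl 3, while that of GSK3B was -0.06. FOXO1, a transcription factor that AKT keeps out of the nucleus and that drives gluconeogenic genes in liver, lies on chromosome 13 from 40469953 to 40666641. It was at 14.6, 14.9 and 15.2 CPM in shControl against 18.1, 17.0 and 17.4 CPM in shPTBP1. Each shPTBP1 library was above each shControl library, with a log2 fold change of 0.23 (standard error 0.13, edgeR adjusted p = 0.948). FOXO3 had a log2 fold change of 0.21 and FOXO4 of -0.37, and FOXO4 was highest in shControl 3 at 12.6 CPM against 6.53 to 7.45 CPM elsewhere.

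SGK1, a kinase related to AKT that PDK1 also activates (chromosome 6, 134169246 to 134318112), was at 348, 422 and 364 CPM in shControl against 310, 322 and 281 CPM in shPTBP1. No shPTBP1 library reached the lowest shControl library. The means were 378 ± 39.2 and 304 ± 21.3 CPM (SD, n = 3 each), and the log2 fold change was -0.31 (standard error 0.11, by edgeR unadjusted p = 0.0283, adjusted p = 0.822).

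UCP2, RAB31 and CPEB2 are grouped with the pathway and are not steps of it. UCP2, a carrier of the inner mitochondrial membrane (chromosome 11, 73974672 to 73982843), was at 2.93, 2.33 and 4.16 CPM in shControl against 7.30, 6.18 and 7.12 CPM in shPTBP1. All shPTBP1 libraries lay well above all shControl libraries. The means were 3.14 ± 0.931 and 6.87 ± 0.604 CPM (SD, n = 3 each), and the log2 fold change was 1.13 (standard error 0.26, by edgeR unadjusted p = 0.00309, adjusted p = 0.457). RAB31, a GTPase of endosomal traffic (chromosome 18, 9708275 to 9862551), was at 29.4, 120 and 44.6 CPM in shControl against 26.1, 25.5 and 28.6 CPM in shPTBP1. The groups did not overlap but shControl 1 was nearly level with shPTBP1 3, and shControl 2 stood far above the rest. Its log2 fold change was -1.28 (standard error 0.48, by edgeR unadjusted p = 0.0316, adjusted p = 0.826) and was -0.47 without shControl 2. CPEB2, which binds messenger RNAs and regulates their translation (chromosome 4, 15002674 to 15070153), was at 23.7, 19.9 and 9.16 CPM in shControl against 7.72, 9.19 and 9.48 CPM in shPTBP1. The shControl 3 library lay among the shPTBP1 values. Its log2 fold change was -1.0 (standard error 0.34, by edgeR unadjusted p = 0.0204, adjusted p = 0.766).

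**Figure D4:**
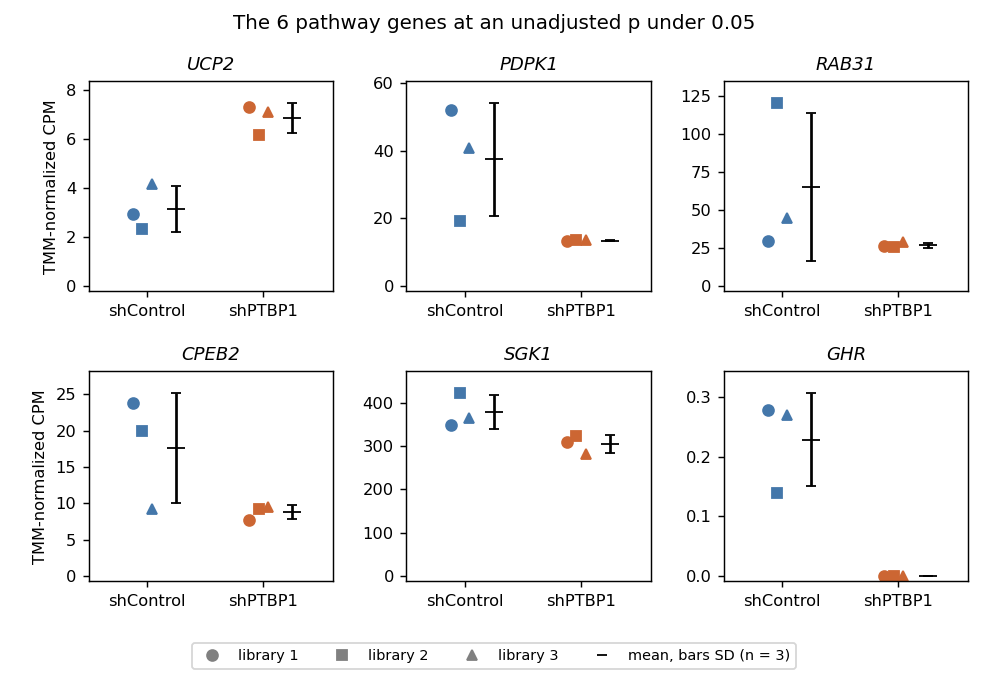
TMM-normalized CPM of the 6 genes with an unadjusted p under 0.05 in each library, with the mean and SD of each group (n = 3). UCP2 is higher in the 3 shPTBP1 libraries, PDPK1, SGK1, RAB31 and GHR are lower in all 3, and for CPEB2 shControl 3 at 9.16 CPM lies within the shPTBP1 points.

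Leaving out shControl 3 shifted several members. It left shPTBP1 3 as the only library nearly without the red-cell transcripts, so this feature was then unbalanced between the groups. CPEB2 was then called, with a log2 fold change of -1.31 (adjusted p = 0.0428, edgeR), as were 0.674% of 20167 genes, and UCP2 reached 1.38 (adjusted p = 0.0580). For CPEB2 the library left out was the shControl library that lay among the shPTBP1 values. With only numbers 1 and 2 the adjusted p of CPEB2 was 0.0776 (edgeR). At an unadjusted p under 0.05 there were 11 members, 4 higher and 7 lower, against 16.6% of all genes (10.2% higher, 6.43% lower). With only the libraries numbered 1 and 2, which all carry the red-cell transcripts, no member was called (0.319% of all genes). There were 9 with an unadjusted p under 0.05 (17.7% of all genes), among them UCP2, PDPK1 and CPEB2. With these 4 libraries the log2 fold changes of SGK1 and RAB31 were -0.28 and -1.54, at unadjusted p of 0.0640 and 0.0675 (edgeR). Over 6 libraries they were -0.31 and -1.28. For RAB31 the value rested on shControl 2 at 120 CPM, as shControl 1 was at 29.4 CPM against 26.1 and 25.5 CPM in shPTBP1 1 and 2. Leaving out shControl 2 alone gave -0.47 for RAB31. Within the libraries numbered 3, the log2 ratio of shPTBP1 to shControl was 0.78 for UCP2, -1.60 for PDPK1, -0.64 for RAB31, -0.37 for SGK1 and 0.05 for CPEB2. With number 3 as a covariate no member was called (0.0155%), and 5 members, GHR, PDPK1, SGK1, UCP2 and CPEB2, had an unadjusted p under 0.05 (6.63% of all genes). GHR is among the 11, 9 and 5 members of these counts. It passed the filter on low counts only through shControl, so its p-values are no support for a difference.

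**Figure D5:**
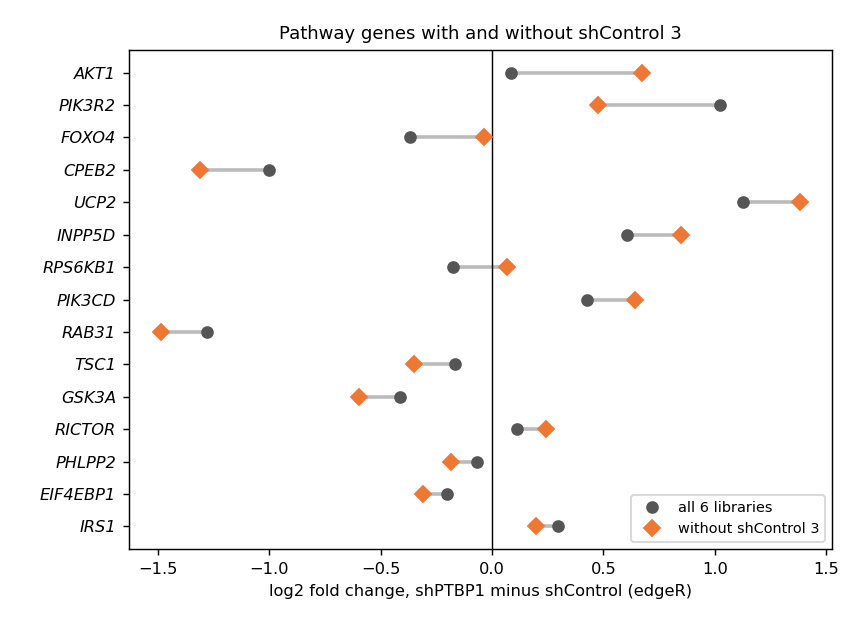
Log2 fold change, shPTBP1 minus shControl (edgeR), over all 6 libraries (grey circles) and without shControl 3 (orange diamonds) for the 15 genes that moved most when GHR, at 0 in shPTBP1, is set aside. AKT1 moved from 0.09 to 0.67, and RPS6KB1 from -0.17 to 0.07.

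The other genes of the pathway, in 4 lists, gave 0 of 100 tested genes past the adjusted threshold by edgeR and 0 by DESeq2 or limma. At an unadjusted p under 0.05 edgeR gave 5 higher and 3 lower, 8 of the 100, against 5.69% of all genes. Without shControl 3 the 4 lists, in the order below, gave 7 of 21, 1 of 19, 10 of 38 and 6 of 22 such genes, against 16.6% of all genes. None of them passed the adjusted threshold, against 0.674% of all genes. Of 21 receptor adaptors and inhibitors, ENPP1, an inhibitor of the insulin receptor, was at 32.1, 32.9 and 36.3 CPM in shControl against 53.2, 44.5 and 43.3 CPM in shPTBP1. Its groups did not overlap, and its log2 fold change was 0.48 (standard error 0.13, by edgeR unadjusted p = 0.00699, adjusted p = 0.604). GRB2, an adaptor to RAS signalling, had a log2 fold change of -0.24 (unadjusted p = 0.0458, edgeR). None of 19 other PI3K subunit and phosphatase genes had an unadjusted p under 0.05, and the smallest was 0.135 for INPP5K. Of 38 other AKT, mTOR and S6 kinase pathway genes there were 4, all higher. Among them were PPP2R5C and PPP2R5E, regulatory subunits of protein phosphatase 2A, with log2 fold changes of 0.33 and 0.24, and the translation factor EIF4B with 0.62. The groups overlapped for EIF4B (edgeR adjusted p = 0.822). Of 22 FOXO target genes there were 2, both lower, PDK4 (-0.49), which restrains pyruvate use, and PINK1 (-0.30), a mitophagy kinase. Their adjusted p by edgeR were 0.82 and 0.86, and the groups overlapped for PDK4. The next gene of this list by p, CDKN1B, was higher (0.30, unadjusted p = 0.0635, edgeR), also with overlapping groups. The median log2 fold change of the lists was 0.06, -0.05, -0.06 and 0.02 in this order, against -0.01 over all genes.

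In the KEGG annotation of the deposited table, no gene of the pathways for insulin (115 tested), PI3K-Akt (261), mTOR (136) or FoxO signalling (115) passed the adjusted threshold by edgeR. At an unadjusted p under 0.05 there were 10 genes in the insulin pathway (8.70%), 27 in PI3K-Akt (10.3%), 12 in mTOR (8.82%) and 11 in FoxO (9.57%), beside 5.69% of all genes. Without shControl 3, and among these same 115, 261, 136 and 115 genes, there were 23, 72, 29 and 26, beside 16.6% of the 20167 genes then tested. Past the adjusted threshold there were 1, 3, 1 and 1, beside 0.674% of those 20167 genes. Of the 27 in PI3K-Akt, 19 were higher and 8 lower, against 6 and 4 in insulin, 6 and 6 in mTOR and 4 and 7 in FoxO. The pathways share genes with each other and with the members, which supply 16 to 25 of the genes tested in each.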

How the data were processed

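The authors deposited 1 table with FPKM and counts per gene for 6 libraries. Their processing notes list cutadapt 1.9, FastQC, HISAT2 2.2.1, StringTie and hg38, without settings. The deposited counts are whole numbers, treated as estimated counts, and the FPKM were used as deposited. Libraries were made with dUTP strand marking, but the sources do not say whether strand was used in counting, and reads of overlapping antisense genes cannot be told apart.

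The test on counts was that of edgeR 4.0.16 in R 4.3.3: filter on low counts (19393 of 58825 genes kept), TMM, quasi-likelihood F test without covariates, Benjamini-Hochberg adjustment over all genes tested, threshold 0.05. The standard error is the absolute log2 fold change divided by the square root of F. The steps were tested on simulated data. Alternatives were DESeq2 1.42.0, limma 3.58.1 on log2(FPKM + 1) at a mean of at least 1 FPKM, other filters, scalings and pseudocounts, counts divided by 4, a replicate block, subsets by library number and leaving out each library. Sums with genes that share sequence were added after seeing the data. Identical stretches of 50 bases were sought in GENCODE 29 transcripts. Tables and figures were made in Python 3.11.15 (pandas 2.3.3, numpy 2.4.6, matplotlib 3.10.9).

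The members and lists were chosen with earlier results of these data known. Values per library were given for members at an unadjusted p under 0.05, those whose groups did not overlap, and INSR, GHR, IRS1, IRS2, AKT1, AKT2, PIK3CA, PIK3R1, MTOR and FOXO1, and up to 4 genes of each other list were eligible by smallest p. Some genes of these lists are not reported here. PTBP2, PIK3R2, INPP5D, EIF4EBP1, GSK3A, RHEB, ENPP1 and the genes sharing sequence were given per library after their values were seen. Precision is limited by 3 libraries per group.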

Additional observations from a re-analysis of the deposited data

How the results depend on the processing

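Against 0 members past the adjusted threshold by edgeR, DESeq2 gave 3, and leaving out 1 library gave between 0 and 1, the 1 being CPEB2 without shControl 3. Members at an unadjusted p under 0.05 were 6 (17.1% of those tested, beside 5.69% of all genes). With 1 library left out they were between 3 (without shPTBP1 1) and 11 (without shControl 3, beside 16.6% of all genes). The share of all genes without shPTBP1 1 was not worked out, so the 3 has no background. Over all genes 6 passed, against 167 with DESeq2, 63 with numbers 1 and 2, 3 with number 3 as a covariate, 1 with limma without a filter, and between 2 and 136 with 1 library left out. Genes of the KEGG pathways at an unadjusted p under 0.05 were 41, beside 5.69% of all genes, and 112 with numbers 1 and 2, beside 17.7%. Among genes at a mean of at least 1 FPKM, limma gave 24 on log2(FPKM + 0.1) and 23 on log2(FPKM + 1), the latter beside 6.91%. Limma on log2(FPKM + 1) without that filter gave 38. With 1 library left out there were between 23 and 105, the 105 without shControl 3, beside 16.6% of all genes. For the other settings named here the share of all genes was not worked out. With a replicate block 0 genes passed, no member among them. In that fit 4 members had an unadjusted p under 0.05. The share of all genes at this p was not worked out there, so the 4 has no background. The numbers were not taken as pairs. Same-numbered libraries correlated at -0.0658, 0.117 and 0.0186 in their deviations from the group means, and differently numbered ones at between -0.109 and 0.0831. The libraries numbered 3 still shared the near absence of red-cell and leukocyte transcripts, so these correlations do not show that same-numbered libraries have nothing in common.

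Signs changed for 10 members, each with a small effect or a wide spread. IRS2 was -0.025 and -0.022 with limma at pseudocounts of 0.1 and 1, and EIF4EBP2 was -0.0099 and -0.0093. With numbers 1 and 2, RPS6KB1 was 0.21 and FOXO4 was 0.0035. With 1 library left out, log2 fold changes ran from -0.10 to 0.13 for IRS2, -0.019 to 0.37 for PIK3R1, -2.77 to 3.61 for PIK3R2, -0.16 to 0.67 for AKT1, -0.18 to 0.056 for PHLPP2, -0.14 to 0.043 for MTOR, -0.018 to 0.24 for RICTOR, -0.52 to 0.068 for RPS6KB1 and -0.026 to 0.072 for EIF4EBP2. The cause was not tested. The other 25 members tested kept their direction under each alternative that gave them a value, which for GHR, PIK3CD and INPP5D was not every one.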

Other observations

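RHEB shares 9.07% of its 50-base stretches with RHEBP1. RHEBP1 was at 21.4, 21.9 and 14.3 CPM in shControl 1, 2 and 3 against 17.5, 2.25 and 23.1 CPM in shPTBP1 1, 2 and 3, so shPTBP1 2 was far below the rest. RHEB itself was at 164, 154 and 144 CPM in shControl against 150, 135 and 141 CPM in shPTBP1. In all, 9 of the 36 members shared over 5% of these stretches with another gene.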
